A study of Mus musculus with 4 samples.

Results

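Immediate early genes are transcribed within minutes of neuronal activity, without new protein synthesis, and most of their transcripts are short-lived. They code for transcription factors that start a second wave of expression and, in the case of Arc, for a protein that acts at the synapse itself. N6-methyladenosine (m6A), a methyl mark on adenosines within mRNA, is bound by YTH-domain proteins and is known to affect how long transcripts persist. The 10 genes described here are Arc, Egr1, Egr3, Egr4, Fos, Junb, Jund, Npas4, Nr4a1 and Nr4a3. They were chosen by name, and their sites were taken from a list of C-to-U edited cytosines by its gene symbols. Of the 28412 sites under 4206 symbols, 64 belonged to these genes, and 7 of the 10 carried at least 1.

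The list came from scDART-seq of mouse cortex (Mus musculus), in which APOBEC1, a cytidine deaminase, is joined to the YTH domain and edits cytosines beside m6A. The 4 libraries were sublibraries 1 to 4 of a single cell pool that combined APOBEC1-YTH and APOBEC1-YTHmut cells, the second with a mutated YTH domain, and replicates 1 and 2 went into every sublibrary together. All mice received tamoxifen at 20 mg/kg every 24 h over 5 days, starting at 6 to 8 weeks of age, and cortex was taken 7 days after the last dose. The labels do not state which promoter or cell type drove the fusion, and the cortex was dissociated with papain. The list names no sample, genotype, cell type or stimulus, so the values below describe a single list without replicates and no test was made. Each site carries a whole number, called its site count, and the labels do not say what this number counts. Counts started at 3, with a median of 4 over all sites. Read depth is unknown, and neither the induction of these genes nor their expression could be checked against the list.

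The labelled tissue was checked with cell type markers. Sites were listed for 4 of 5 markers of excitatory neurons and 2 of 5 of inhibitory neurons, for 4 of 5 of astrocytes, 5 of 5 of oligodendrocytes and 5 of 5 of endothelial cells. Of the microglia markers, Cx3cr1 and Csf1r had 1 site each. Tbr1, Gad1, Pvalb, Vip, Gfap, P2ry12 and Tmem119 had none. Over annotated protein-coding genes, 17.4% had a site. With 5 markers per cell type this is a coarse check, and a marker without a site does not show that its cell type was absent.

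The sequences around the listed cytosines are shown for 6 of the 7 genes, at their highest site counts and where sites crowd together. They are given 5′ to 3′ on the gene's strand, with mm10 coordinates and bases from the GENCODE transcripts. Capitals mark the 5-base context of every listed cytosine in RAC, that is, a C after A with A or G before it, and the listed C is the base at position 4 of each context. DRACH, the m6A consensus, adds 2 limits to RAC: the base before it is not C and the base after it is not G. Contexts that overlap run together.
Egr3, 3′ UTR, site with the highest count in the gene (chr14:70082031-70082051, plus strand): aTAACTcTGACTtttcctttg
Egr3, 3′ UTR, next sites of the same run (chr14:70082060-70082089, plus strand): AAACTgttctcAGACAtttaagctAAACTa
Egr3, 3′ UTR, site with the second-highest count (chr14:70082093-70082113, plus strand): gaaaaaaAAACTttgttgcca
Egr3, CDS, highest count in its coding sequence (chr14:70079315-70079335, plus strand): ccTGACTaCAACCtgtaccac
Arc, 3′ UTR, middle of its run of sites (chr15:74671024-74671048, minus strand): cTGACTcaCAACTgccacaCAACCa
Arc, 3′ UTR, distal site with the highest count in the gene (chr15:74669270-74669290, minus strand): aaagccaTGACCcatactcat
Jund, 3′ UTR, site with the highest count among the 10 genes (chr8:70700339-70700359, plus strand): gaagagaGAACGggagtgtcc
Jund, 3′ UTR, a pair of sites with overlapping contexts (chr8:70700385-70700405, plus strand): tcggGAACAAACGttggttgc
Junb, 3′ UTR, highest count in the gene (chr8:84976945-84976965, minus strand): gtgtgttTGACTttttattga
Fos, CDS, highest count in the gene, shared with a 3′ UTR site (chr12:85475882-85475902, plus strand): gaaggaaAAACTggagtttat
Nr4a1, CDS, highest count in the gene (chr15:101270112-101270132, plus strand): acaccagCAACGagcccagga

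A listed site was present in 7 of the 10 genes, while 17.4% of 21924 annotated protein-coding genes had one, and 3 of the 10 had at least 10 sites, against 3.1% of protein-coding genes. These shares are descriptions, because the 10 genes were proposed with results of this list in view. Egr3 led with 22 sites, followed by Arc with 13, Egr1 with 10, Jund with 7, Fos with 5, Junb with 5 and Nr4a1 with 2. Egr4, Npas4 and Nr4a3 had 0. A gene without a site may be unexpressed, thinly read, unedited or removed by a filter, and these cannot be told apart in the list. The median over the 10 genes was 5 sites and over all 4202 genes placed on the annotation with a site it was 2. Egr3 alone held 34.4% of the 64 sites (exact 95% binomial interval 22.9 to 47.3, which treats sites as independent and covers counting error only).

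**Figure D1:**
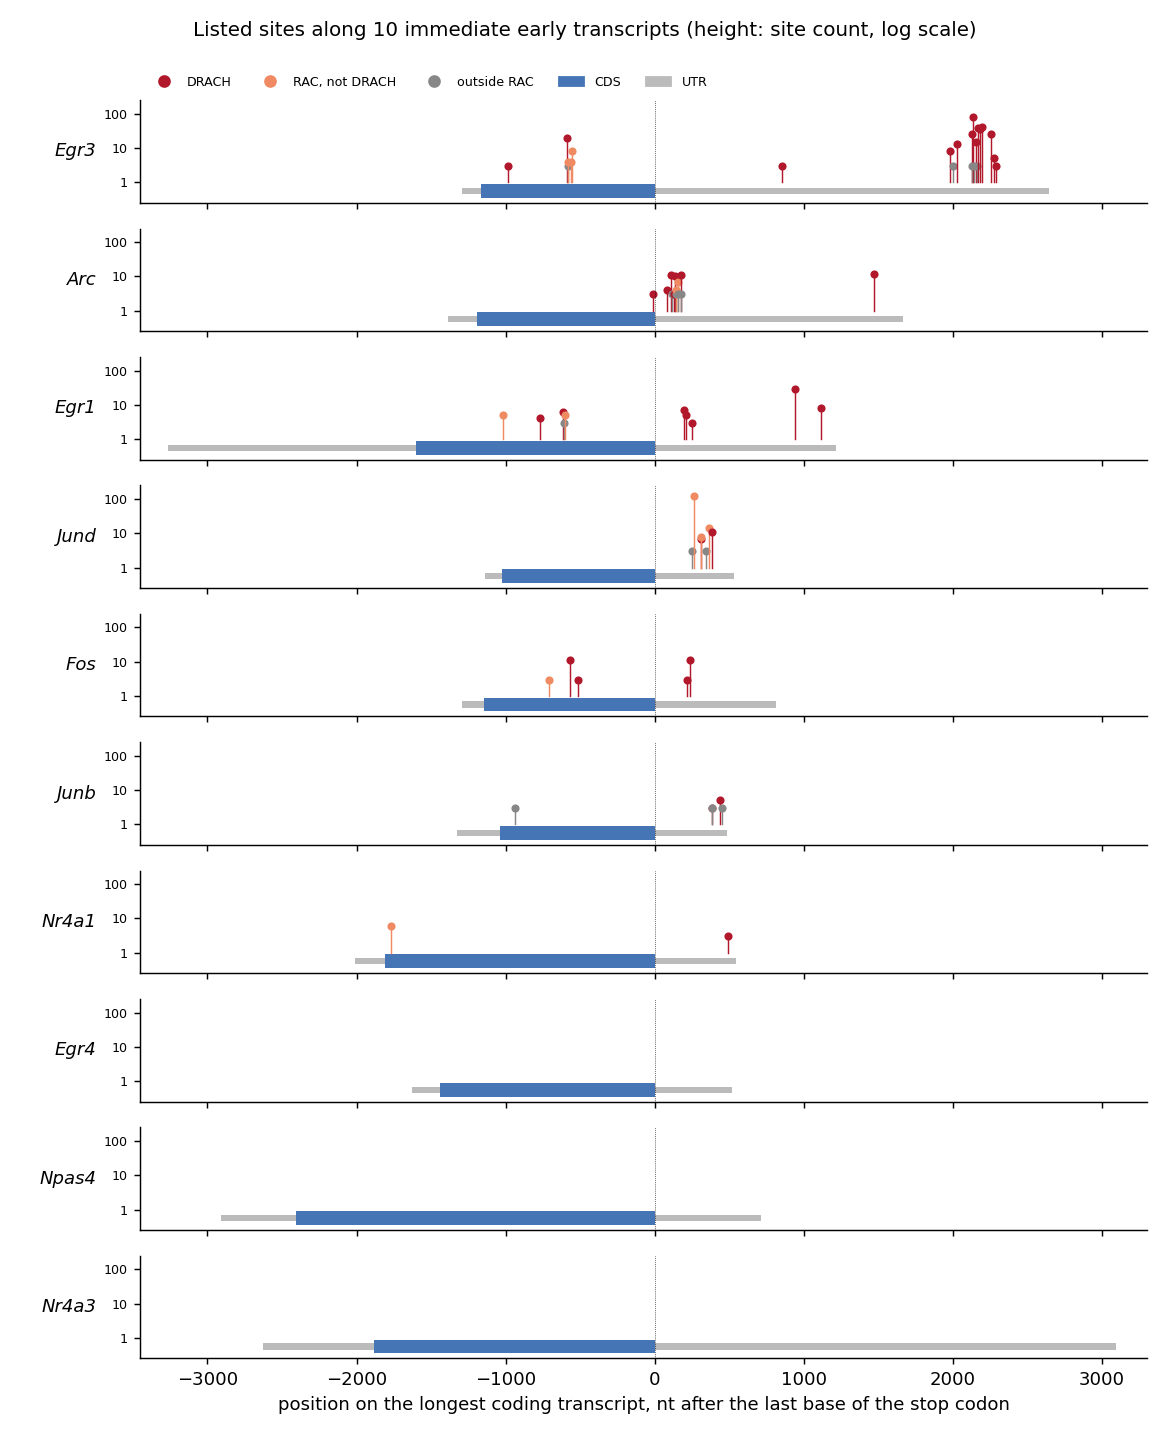
Every listed site of the 10 genes on the longest coding transcript of each, in nt after the last base of the stop codon (x axis, negative before it), with the site count as height on a log scale. Boxes show coding sequence (blue) and UTRs (grey). Egr3 sites crowd far into its 3′ UTR, Arc sites just after the stop codon and Jund sites in the 3′ UTR only, while Egr4, Npas4 and Nr4a3 are empty.

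Egr3, a zinc finger transcription factor induced by activity, carried the most sites, and its counts summed to 345 of the 723 over all 10 genes. Its gene spans chr14:70077203-70082614 on the plus strand. The 22 sites had counts between 3 and 79 with a median of 6.5, with 16 in the 3′ UTR and 6 in coding sequence. Of the 3′ UTR sites, 15 fell in a run of 306 nt, between 1982 and 2287 nt after the stop codon. Their counts in transcript order were 8, 3, 13, 26, 3, 79, 3, 15, 3, 38, 35, 41, 26, 5 and 3. High and low counts alternated over a few bases, and 4 of the 5 counts of 3 fell on cytosines outside RAC. The run holds 11 RAC cytosines, and all 11 were listed, out of 49 cytosines of any kind. Before the run, the first 1981 nt of the 3′ UTR hold 27 RAC cytosines, of which 1 was listed, at a count of 3. The 358 nt after the run hold 8, of which 0 were listed. The ends of the run were set by its outermost sites, so its complete listing is in part a matter of that choice.

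The coding sites of Egr3 also sat together. Of the 6, 5 lay within 28 nt, at codons 193, 194, 195, 201 and 202 of the longest coding transcript, with counts of 19, 3, 4, 4 and 8. Those 5 were all at codon position 3. The 4 RAC cytosines of that stretch were all listed, again in part because its outermost sites set its ends. The remaining coding site, at codon 60, had a count of 3.

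Egr1, the related zinc finger factor widely used as a marker of active neurons, had a more scattered pattern. Its gene lies at chr18:34859823-34864984 on the plus strand. The 10 sites were split evenly, with 5 in the CDS and 5 in the 3′ UTR, and their counts were between 3 and 30 with a median of 5. The coding counts were 5, 4, 6, 3 and 5, at codons 195, 277, 329, 332 and 334. The 3′ UTR counts were 7, 5 and 3 at 197, 213 and 249 nt after the stop codon, then 30 at 938 nt and 8 at 1115 nt. The count of 30 stood apart from the other 9 sites, none of which passed 8. Egr4, at chr6:85511121-85513589 on the minus strand, had no site although its exons hold 46 RAC cytosines, against 113 in Egr1 and 91 in Egr3.

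Arc, which binds the endocytic machinery at synapses and takes part in the removal of AMPA receptors, had 13 sites, 12 in the 3′ UTR and 1 coding. Its gene lies at chr15:74669083-74672570 on the minus strand, and its transcript of 3 exons has both introns in the 3′ UTR. A run of 11 sites covered 98 nt, from 81 to 178 nt after the stop codon. Counts in transcript order were 4, 11, 3, 3, 10, 3, 4, 7, 3, 11 and 3, so no site of the run dominated. Of the 8 RAC cytosines in the run, whose ends were also set by its outermost sites, 7 were listed. The unlisted one was the C of a GGACT at 170 nt. Beyond the run, the next 1490 nt of the 3′ UTR hold 32 RAC cytosines, with 1 listed. That site, at 1471 nt after the stop codon and 197 nt from the transcript end, had the highest count of the gene, 12. It was the only Arc site outside exon 1, and the second exon, of 140 nt, had 0 sites on 2 RAC cytosines. The coding site had a count of 3 and lay 13 nt before the last base of the stop codon, at codon 393.

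**Figure D2:**
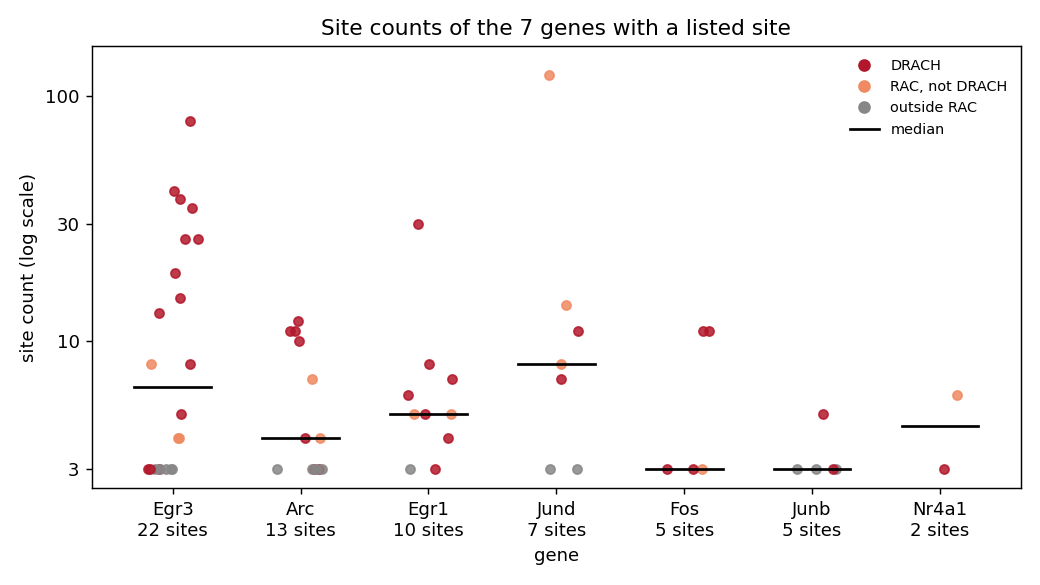
Site counts (y axis, log scale) of all 64 sites, by gene in order of the number of sites, with the median of each gene as a black line and the points spread sideways for visibility. Jund has the single highest count, 122, and Egr3 the most sites above 30, while Fos and Junb have medians of 3, the lowest count in the list.

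The Fos and Jun proteins pair to form the AP-1 transcription factor, and the 3 members of these families differed in their sites. Jund, which unlike the others is known for broad expression in unstimulated cells, lies at chr8:70698949-70700616 on the plus strand and has a single exon. All 7 of its sites lay in the 3′ UTR and 0 in its 1026 nt of CDS, where there are 27 RAC cytosines. Counts in transcript order were 3, 122, 7, 8, 3, 14 and 11. The count of 122 was the highest among the 10 genes, while the other 6 sites of Jund summed to 46. A site of count 100 or more was present in 3.57% of genes with a site, and by its highest count Jund ranked 117 of 4202 genes. Egr3 ranked 206, Egr1 602, Arc 1363, Fos 1448, Nr4a1 2248 and Junb 2486 by the same measure. The 7 sites of Jund covered 135 nt, from 250 to 384 nt after the stop codon. All 5 RAC cytosines there were listed, in part because the outermost sites set these ends. The 249 nt between the stop codon and the first site hold 9 RAC cytosines, none listed, among them the C of GGACT at 27, 54 and 80 nt.

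Junb, whose longest coding transcript also has a single exon, lies at chr8:84974484-84978718 on the minus strand and had 5 sites. Their counts were 3 in the CDS, at codon 32, and 3, 3, 5 and 3 in the 3′ UTR, at 385, 387, 440 and 453 nt after the stop codon. The last of these was 32 nt from the transcript end. Of the 5 sites, 3 lay outside RAC. Fos, at chr12:85473890-85477273 on the plus strand, had 3 coding sites with counts of 3, 11 and 3, at codons 146, 193 and 209. Its 2 sites in the 3′ UTR had counts of 3 and 11, at 220 and 237 nt after the stop codon. All 5 sites of Fos lay in RAC.

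The Nr4a genes code for orphan nuclear receptors that act as transcription factors. Nr4a1, at chr15:101254269-101274795 on the plus strand, had 2 sites on exons that hold 107 RAC cytosines. The first had a count of 6 at codon 13 and the second a count of 3 at 489 nt after the stop codon, 54 nt from the transcript end. Nr4a3, at chr4:48045153-48086447 on the plus strand, had 0 sites, although its exons hold 147 RAC cytosines, the most of the 10 genes. Npas4, a bHLH-PAS factor of neurons that responds to calcium entry, lies at chr19:4984355-4990316 on the minus strand. It had 0 sites and 108 RAC cytosines.

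Per length, the order of the genes kept Egr3 first. It had 4.99 sites per kb of exon, Arc 4.25 and Jund 4.20, then Egr1 2.23, Junb 2.17, Fos 2.13 and Nr4a1 0.570. The median gene with a site had 0.456 sites per kb, and 95.4% of these genes lay below Egr3, 94.2% below Arc, 94.1% below Jund and 57.4% below Nr4a1. With only sites of count 4 or more, Jund passed Arc, at 2.998 against 2.29 sites per kb, and Fos passed Junb, at 0.850 against 0.435. Per kb of the longest coding transcript, Junb at 2.76 and Fos at 2.37 passed Egr1 at 2.23, while Egr3, Arc and Jund kept their order. A gene's number of sites depends on its expression, which is not in the list, and the part of read depth in this order was not tested.

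**Figure D3:**
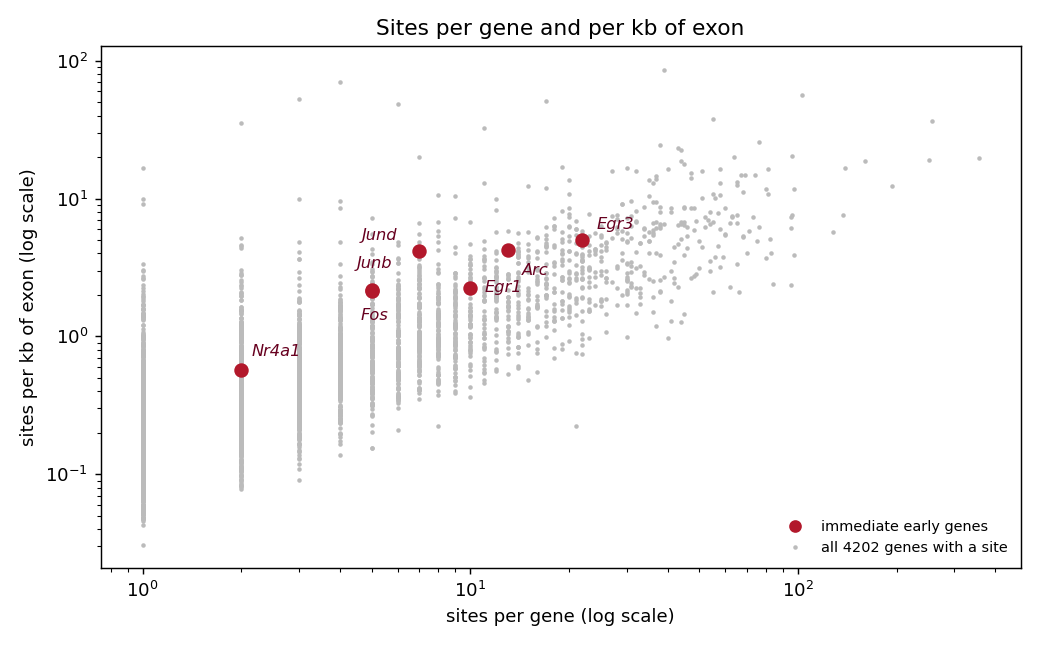
Sites per kb of exon (y axis, log scale) against sites per gene (x axis, log scale) for all 4202 genes with a site (grey) and the 7 immediate early genes with a site (red, named). Egr3, Arc and Jund lie between 4.20 and 4.99 sites per kb, well above the median gene at 0.456, and Nr4a1 lies at 0.570.

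Most sites of these genes lay in the 3′ UTR. It held 47 of the 64 sites, 73.4% (95% interval 60.9 to 83.7), against 61.9% of the sites of other genes. The CDS held 17 sites, 26.6% (16.3 to 39.1), against 26.04% elsewhere. No site lay in a 5′ UTR, which allows a share of up to 5.60%, and other genes had 2.02% there. The shares of other genes are over all 28348 of their sites, some in noncoding exons, introns or no gene, where none of the 64 lay. This lowers their 3′ UTR, CDS and 5′ UTR shares, so the comparison is not like for like. The interval of the 3′ UTR share includes the value of the other genes only at its lower end, and sites that crowd in a few genes make it too narrow. The 7 genes each had a site in the 3′ UTR, and all but Jund also had a coding site.

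Set against the cytosines on offer, the 3′ UTRs of the 7 genes with a site had 35 of 178 RAC cytosines listed, 19.7%, and their coding sequences 14 of 262, 5.34%. Over all 10 genes the shares were 10.6% and 3.83%. The other genes with a site had 4.73% of RAC cytosines listed in the 3′ UTR and 2.34% in coding sequence. Gene by gene, along the longest coding transcript, these shares rest on few sites. In the 3′ UTR the listed share of RAC cytosines was 33.3% in Jund (5 of 15), 28.6% in Junb (2 of 7) and 26.1% in Egr3 (12 of 46). It was 19.2% in Egr1 (5 of 26), 19.05% in Arc (8 of 42), 8.33% in Fos (2 of 24) and 5.56% in Nr4a1 (1 of 18). For the coding sequence the listed share was 12.8% in Egr3 (5 of 39), 9.09% in Fos (3 of 33) and 8.70% in Egr1 (4 of 46). It was 3.23% in Arc (1 of 31), 2.0% in Nr4a1 (1 of 50) and 0% in Junb and Jund. Fos was thus the one gene with about equal listed shares in both regions, on only 2 and 3 listed cytosines.

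**Figure D4:**
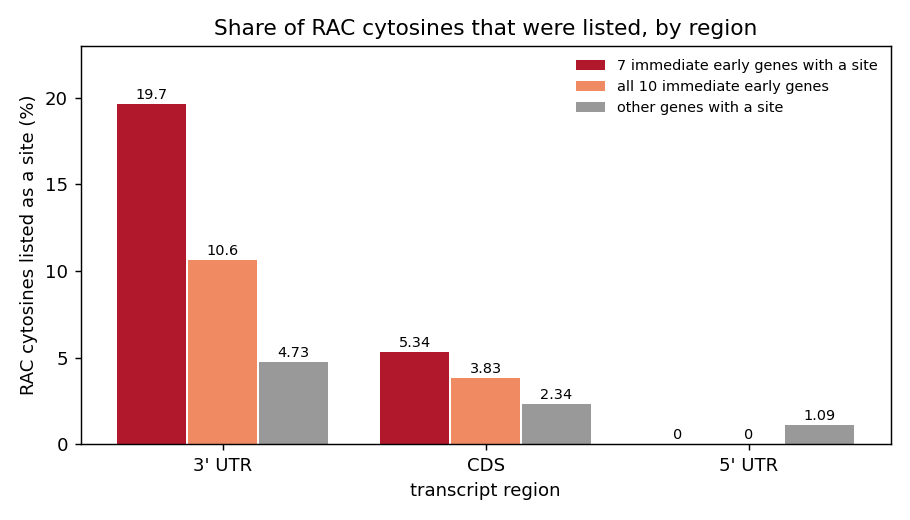
Percent of RAC cytosines that were listed as a site (y axis), by transcript region, for the 7 immediate early genes with a site (red), all 10 (orange) and other genes with a site (grey). The 3′ UTR bars stand at 19.7%, 10.6% and 4.73%, and the CDS bars at 5.34%, 3.83% and 2.34%. In the 5′ UTR both immediate early bars stand at 0, on only 81 and 110 RAC cytosines, and the grey bar at 1.09%.

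The distance from the stop codon differed between the genes. Within 400 nt of it lay 26 of the 64 sites, 40.6% (28.5 to 53.6), against 30.2% in other genes. The value of other genes is over their 24641 sites that lay on a longest coding transcript. The share rests on which gene is counted: it was 61.9% without Egr3, whose run lies far downstream, and 27.5% without Arc. Measured from the other end, the runs of Egr3 and Jund lay 358 to 663 nt and 149 to 283 nt before the annotated transcript end. The run of Arc lay 1490 to 1587 nt before it. The median member site was 815 nt from the transcript end, against 2271 nt at the same 24641 sites of other genes. This distance cannot exceed the length of the transcript, and the transcript lengths of the other genes were not compared. The share within 400 nt of the stop codon likewise depends on 3′ UTR length. Whether the sites of these genes lie nearer to either point than their lengths allow for was not tested. Of the 64 sites, 50 lay in the last exon, 12 of them on the single-exon transcripts of Junb and Jund. Of the sites outside the last exon, 12 were in exon 1 of Arc. None of the 64 lay in an exon annotated for another gene on the opposite strand. On spliced transcripts the median site was 699 nt from the nearest exon junction, and 4 sites were within 100 nt of one, at 25 nt in Egr3, 43 and 76 nt in Fos and 40 nt in Nr4a1.

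The sequence contexts of these genes resembled those of the list as a whole in their main shares. In RAC lay 49 of 64 sites, 76.6% (64.3 to 86.2), against 77.5% elsewhere, and 37 of the 49 were DRACH, 75.5% (61.1 to 86.7), against 71.0%. All 38 sites with a count of 4 or more were in RAC, against 99.7% in other genes, and of the 26 sites with a count of 3, 15 were outside it (57.7%, against 54.3%). The edge is thus one of the whole list, and whether a filter of the authors made it was not tested. Over those 15 sites, the median distance to the nearest RAC site with a count of 4 or more was 6 nt. Of them, 13 lay within 30 nt. The exceptions were both in Junb, at 53 and 1379 nt.

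The listed share of RAC cytosines varied with the bases before the C. Over all RAC contexts of the 7 genes, 49 of 566 cytosines were listed (8.66%, against 2.82% in other genes), so most contexts stood higher. After AAA it was 15 of 71 (21.1%, against 4.31%) and after TGA 11 of 85 (12.9%, against 2.52%). After GAA it was 11.1% against 2.91%, and after CAA 8.11% against 2.998%. After TAA it was 8.70% against 2.72%, and after AGA 4.55% against 2.45%. After CGA the order was the other way, with 1 of 63 listed (1.59%, against 2.73%). After GGA, the start of the m6A motif GGAC, 3 of 99 were listed (3.03%, against 1.45%), 1 each in Arc, Egr1 and Egr3, and all with a count of 3. The AAAC sites had a median count of 11 and a highest of 41. TGACT was listed 7 times, at 36.8% of its 19 occurrences, in Arc, Egr1, Egr3, Junb and Nr4a1, with counts from 3 in Nr4a1 to 79 in Egr3. GAACG, which carries the count of 122 in Jund, was listed 3 times at 10 occurrences. Its last G takes it out of DRACH, as in 8 of the 49 RAC sites, 16.3%, against 15.3% in other genes.

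AU-rich elements, known for the rapid decay of immediate early transcripts, were looked for as the pentamer ATTTA on the sense strand, overlaps counted. Per kb of 3′ UTR, Nr4a1 has 5.52, Fos 4.91, Junb 4.12, Egr3 2.65, Jund 1.88, Egr1 1.64, Nr4a3 1.62 and Npas4 1.40, and Arc and Egr4 have 0. The median of 19882 protein-coding genes with a 3′ UTR of at least 100 nt was 1.33 per kb. In Egr3, 12 of the 16 sites in the 3′ UTR lay within 50 nt of one of its 7 pentamers, a window that covers 25.7% of that 3′ UTR. All 12 belong to the run described above. Within 50 nt also lay 4 of 7 sites in Jund, where the window covers 18.9%, 2 of 4 in Junb (37.1%), 1 of 5 in Egr1 (12.8%) and 1 of 1 in Nr4a1 (26.2%). In Fos (23.7%), 0 of 2 did, and all 4 pentamers lay downstream of its sites, the nearest at 418 nt. Arc, with no ATTTA, had 12 sites in its 3′ UTR, and Nr4a3, with 5 pentamers, had 0.

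Other genes of the same response were described from a list of 35 immediate early genes. A site was present in 15 of the 35, against 17.4% of protein-coding genes, and 4 had at least 10, against 3.1%. Homer1, a postsynaptic scaffold with an activity-induced short form, had 21 sites, the AP-1 subunit Jun 15, Nr4a2 15, the zinc finger factor Klf6 12 and the clock gene Per1 8. Within families the numbers were uneven. Egr3 and Egr1 had 22 and 10 sites and Egr4 0, against 0 in Egr2. Jund had 7 and Junb 5, against 15 in Jun. Nr4a1 had 2 and Nr4a3 0, against 15 in Nr4a2. Fos had 5, against 1 in Fosl2 and 0 in Fosb and Fosl1. Egr2, Fosl2, Fosb and Fosl1 were named after their values were seen.

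Genes upstream of immediate early transcription were described from a list of 24, of which 13 had a site and 6 had at least 10, against 17.4% and 3.1% of protein-coding genes. Ppp3ca, a catalytic subunit of calcineurin, had 73 sites, and Ppp3cb, another catalytic subunit, 30. The transcription factors Mef2c and Mef2a had 59 and 21, and Mrtfb, a coactivator of SRF, 31. The 10 genes described here had a median of 5 sites per gene, against 1 in the upstream list and 0 in the other immediate early genes. The highest numbers were 22, 73 and 21 in the same order. The genes and lists were chosen with earlier results of these data known, so these values are descriptions.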

How the data were processed

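The study measured C-to-U edits by scDART-seq in 4 sublibraries of 1 cell pool of mouse cortex. The submitters' processing notes name STAR 2.7.5 and mm10, and the series text names the Bullseye pipeline as the source of the sites. The authors deposited 1 list that gives each site a whole number, read as a count without normalization, beside its position, strand and symbol. Neither filters nor depth are stated in the labels. The labels' sublibraries are not columns of the list, so nothing was tested and no gene of like pattern could be named.

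Sites were placed on GENCODE M21, which has mm10 coordinates, with Python 3.11.15. By symbol and strand 27873 of 28412 sites matched, 496 by position only and 43 not at all, and of 28337 exonic positions 28336 held a C. Where transcripts disagreed, a 3′ UTR was preferred to CDS, CDS to a 5′ UTR and any of these to a noncoding exon, and distances on the longest coding transcript from the last base of the stop codon. As a check of the code, 2000 simulated sites were drawn from annotated exons under their own gene's symbol, and 2000 returned to their gene. Matching by symbol made this outcome nearly certain, and the check did not cover wrong symbols or the 496 sites placed by position. Intervals are exact Clopper-Pearson (SciPy 1.17.1). Cyr61, Mkl1 and Mkl2 were matched as Ccn1, Mrtfa and Mrtfb through RefSeq synonyms (GRCm38.p6). The members and lists were chosen with earlier results of these data known. The 10 genes and the 5 genes with the most sites in each other list are named, and any other gene was named after its values were seen. One marker gene and 1 sequence are not reported here. Alternatives changed the count minimum, region rule, motif, merging and denominators.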

Additional observations from a re-analysis of the deposited data

How the results depend on the processing

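At a count of 4 or more, the 64 sites became 38, the median per gene 1.5 and the density over all 10 genes 1.12 per kb of exon, against 1.88 with all sites. At a count of 10 or more 19 sites were left, in 5 of the 10 genes. With RAC cytosines as the denominator there were 7.38 sites per 100, a value that also counts the 15 sites outside RAC. The share near the stop codon was 20.3% with a window of 200 nt, and between 27.5% and 61.9% with each gene left out in turn. The 3′ UTR, CDS and DRACH shares stayed within their 95% intervals under every alternative tried for them. The alternatives reuse the same 64 sites and the intervals are wide, so this is a weak check. When each gene was left out, 68.6% to 77.8% of sites lay in the 3′ UTR. Merging sites within 10 nt left 45. The count minimum for both other gene lists was chosen after seeing the data and left 15 and 13 genes with a site. Read depth is unknown, so a gene with few sites cannot be told apart from one read thinly. No paired analysis was possible because all sublibraries share 1 list.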
